A study of Saccharomyces cerevisiae with 2 samples.

Results

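The large (60S) subunit of the ribosome is built on a precursor of ribosomal RNA (rRNA) by assembly factors that are not part of the finished subunit. Transcripts of 39 genes for such factors were compared between budding yeast carrying a temperature-sensitive allele, acs2-Ts1, and yeast with wild-type ACS2. The genes were chosen by name, as helicases, GTPases, rRNA methyltransferases, structural proteins and export factors of the 60S pathway, out of 5449 Saccharomyces cerevisiae genes with a value. Each of the 39 has 1 probe set on the array, and none of these probe sets carries the suffix that marks possible cross-hybridization.

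Assembly begins in the nucleolus, where RNA-binding proteins, helicases and methyltransferases act on the nascent rRNA, continues in the nucleoplasm, where GTPases and a very large ATPase remodel the particle, and ends in the cytoplasm, where export and anti-association factors are stripped off. In yeast the genes of this pathway are known to be expressed together, high in growing cells and low under stress. Acs2 is an acetyl-CoA synthetase found in the nucleus and cytosol, whose product is used for histone acetylation and lipid synthesis.

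The acs2-Ts1 sample is a BY4741 strain of mating type a with the alleles his3delta1, leu2delta0, met15delta0 and ura3delta0, in which the chromosomal ACS2 gene was replaced by a HygMX cassette and acs2-Ts1 was supplied on the centromeric URA3 plasmid pHT215. The ACS2 sample has the same background and the same chromosomal deletion, with wild-type ACS2 on the centromeric URA3 plasmid pHT112-1. Both strains were grown in YPD, a rich glucose medium, and shifted to 37 °C for 60 min. Both titles abbreviate wild type, so groups were assigned by the genotype labels. Each group is 1 deposited sample, which the authors made as the mean of 2 arrays. No replicates, standard errors or tests could therefore be had, and acs2-Ts1 is called higher or lower than ACS2 for these samples alone. The arrays read bulk RNA, so fewer cells with a transcript and less of it per cell cannot be told apart.

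Values are linear intensities of probe sets, scaled by the authors to control probe sets, and a log2 ratio is that of acs2-Ts1 over ACS2. Controls of hybridization or labelling, picked by name and called hybridization controls here, were 28 bacterial and phage probe sets above background in both samples. They spread around a median log2 ratio of -0.01 with an SD of 0.17. The level read from genes outside the species, at their 95th percentile, was 46.3 in acs2-Ts1 and 49.1 in ACS2, and all 39 genes lay above it in both samples. LEU2 and MET17 (MET15), which are deleted in the strains, read 77.5 and 77.5 in acs2-Ts1, against 68.0 and 47.9 in ACS2. A fold is not given below for a gene that was no brighter than these in acs2-Ts1. The plasmid marker URA3 read 7060 in acs2-Ts1, against 1853 in ACS2, and the part of the plasmids in the results was not tested. The markers of mating type a were present, with STE2 at 2090 in acs2-Ts1, against 3398 in ACS2, and MF(ALPHA)1 of the other mating type was at background, 21.0 in acs2-Ts1, against 25.5 in ACS2. STE3, silent in cells of mating type a, read 59.0 in acs2-Ts1, against 214 in ACS2, which is above the background limit in both samples. The signal of this gene was thus also lower in acs2-Ts1. In ACS2 it was brighter than MAK16, at 148, so a value above the limit may not be a transcript of the gene. Probe sets of genes outside the species, 1746 in all, had a median log2 ratio of -0.32. ACS2 itself read 12426 in acs2-Ts1, against 10257 in ACS2, so its transcript, present on both plasmids, does not check the labels.

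Transcripts of 38 of the 39 assembly factors were lower in acs2-Ts1, and 31 were at least 2-fold lower. Among all genes 86.4% were lower, and 55.9% reached a 2-fold lower level. The lower level is thus shared by most of the genome, and the share of 79.5% past 2-fold among the assembly factors lies above that background. At least 2-fold higher were 0 of the 39, beside 3.67% of all genes. The median log2 ratio was -1.31 for the assembly factors, a 2.48-fold lower level, against -1.12 for all genes. Of the 4102 genes whose mean log2 intensity lies within the range of the 39, a share of 63.9% was at least 2-fold lower, with a median log2 ratio of -1.24.

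**Figure D1:**
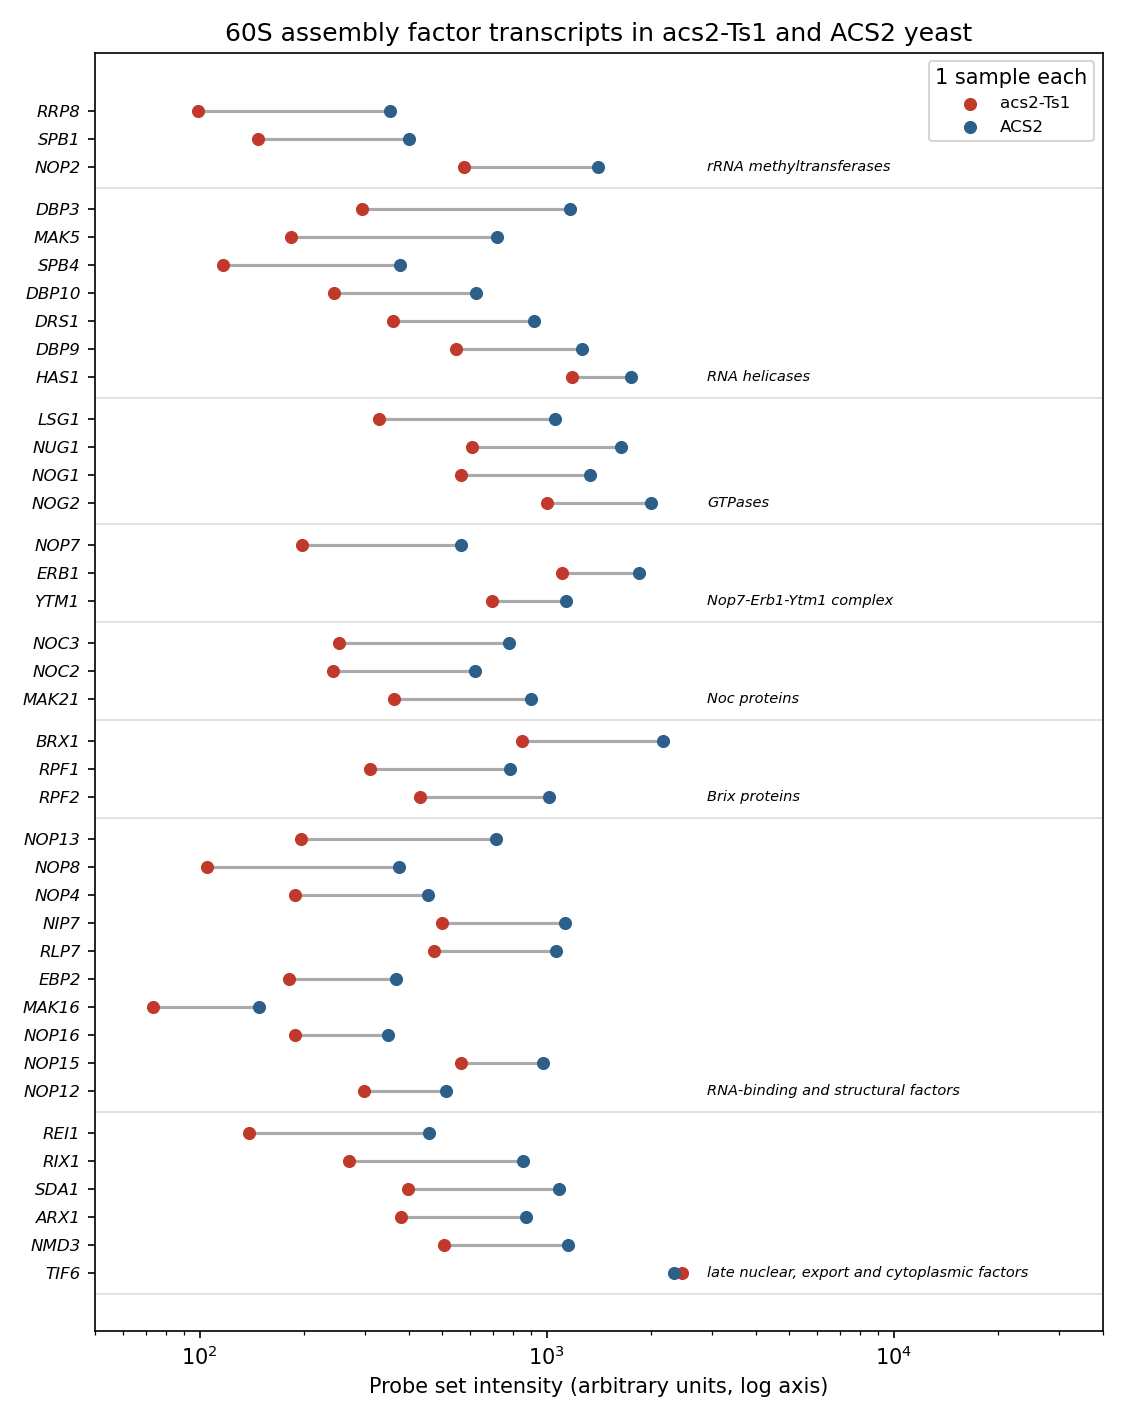
Intensity (log axis, arbitrary units) of each of the 39 genes in acs2-Ts1 (red) and in ACS2 (blue), 1 sample each, with genes grouped by role and ordered by ratio within a role. The red point lies left of the blue one for 38 genes, and TIF6 is the exception, at 2451 in acs2-Ts1 and 2327 in ACS2.

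The assembly factors were grouped more tightly around their median than genes in general. The interquartile range of their log2 ratios ran from -1.58 to -1.10, a width of 0.48, whereas that of all genes ran from -1.60 to -0.49, a width of 1.11. For genes in the same range of mean intensity the width was 0.89. The lower ends of these intervals nearly coincide, and the difference between the intervals lies at the upper end, where few of the 39 genes had a ratio near 0. The counts at 1.5-fold and 3-fold show the same. At 4-fold the 39 genes also lacked the lowest ratios found among all genes. At least 1.5-fold lower were 37 of 39 genes (94.9%), beside 72% of all genes, but at least 3-fold lower were 10 of 39 (25.6%), beside 25.8% of all genes, a share at the background. At least 4-fold lower were 0 of 39, beside 9.51% of all genes. Lists of related genes, described below, were also narrower than all genes. The width was 0.76 for 44 other genes of large subunit assembly and 0.68 for 61 factors of the small subunit. At least 4-fold lower were 10 of those 44 and 11 of those 61. Some of these were no brighter than the deleted genes in acs2-Ts1. The lack of such ratios is thus not a trait of the pathway.

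**Figure D2:**
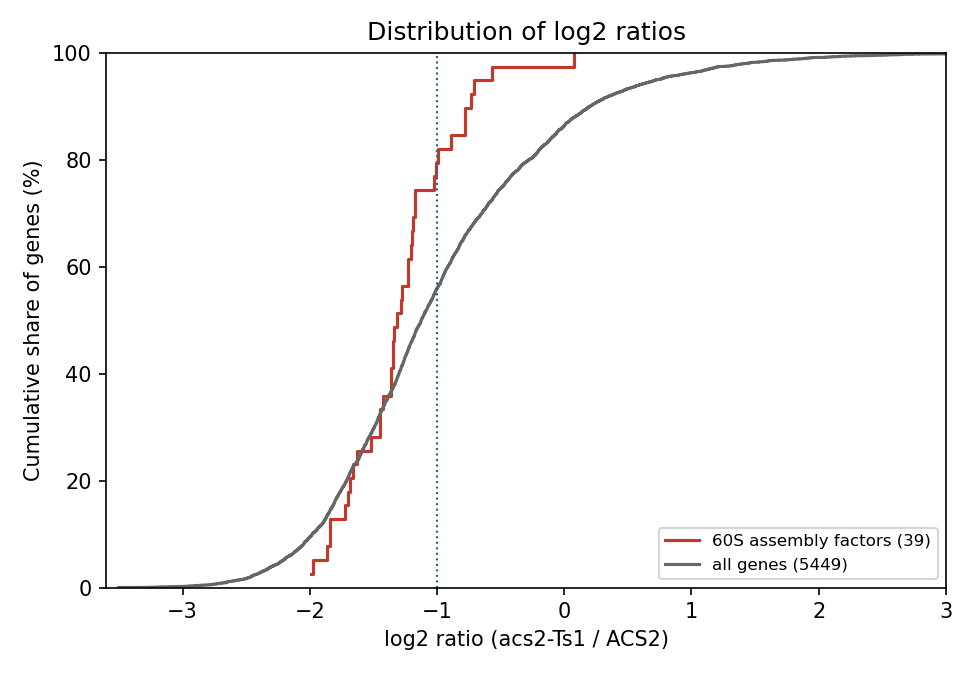
Cumulative share of genes (%) against the log2 ratio of acs2-Ts1 over ACS2 for the 39 assembly factors (red) and for all 5449 genes (grey), with a dotted line at a 2-fold lower level and the axis ending at 3. The red curve starts at -1.99, meets the grey one near the lower quartile and then rises more steeply, with 79.5% of the 39 genes and 55.9% of all genes at or below the dotted line.

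Direction depends on the scaling to controls. With the all-gene median subtracted, which assumes no global shift, 29 of the 39 genes were lower and 10 were higher, beside 50% of all genes lower. On that scale 0 of the 39 were at least 2-fold lower, beside 6.61% of all genes, and 1 was at least 2-fold higher, beside 16.4%. Ratios also vary with brightness on these arrays, being closer to 0 for the brightest probe sets and for the dimmest. In acs2-Ts1, 859 of the 5449 genes were no brighter than the deleted genes, beside 1 of the 39. The shares given for all genes include these dim ones. Measured from a smooth curve of the ratio on mean log2 intensity, 29 of the 39 genes lay below the curve, beside 50.9% of all genes. Their median distance from the curve was -0.13, and 0 of the 39 lay 2-fold or more below it, beside 4.06% of all genes.

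**Figure D3:**
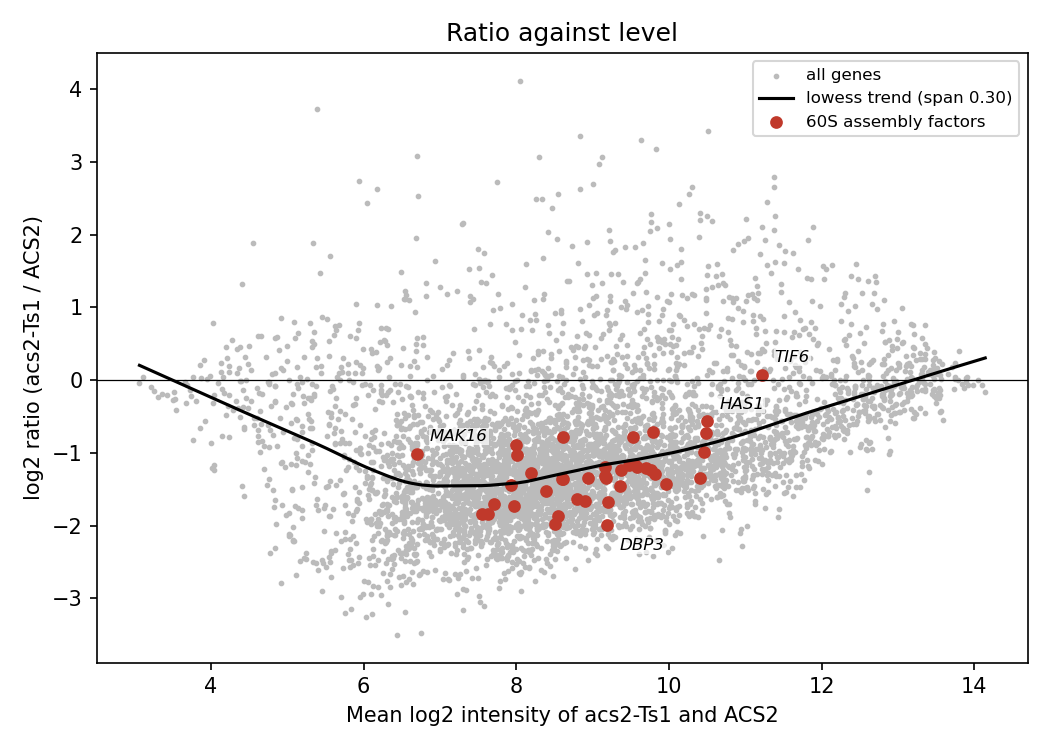
Log2 ratio of acs2-Ts1 over ACS2 against the mean log2 intensity of both samples for all genes (grey) and the 39 assembly factors (red), with a lowess curve of span 0.30 (black). Of the 39 genes 29 lie below the curve, TIF6 and HAS1 lie above it at the bright end and MAK16 is the dimmest.

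The rRNA methyltransferases modify bases and riboses of the 25S rRNA. All 3 were at least 2-fold lower, beside 55.9% of all genes. The role classes are small, and no count within a class was tested against that share. RRP8, which methylates an adenine of 25S rRNA, read 99.0 in acs2-Ts1, against 355 in ACS2, a 3.58-fold lower level. SPB1, a ribose methyltransferase that acts near the peptidyl transferase centre, read 148 in acs2-Ts1, against 402 in ACS2 (2.72-fold lower). NOP2, a cytosine methyltransferase, read 577 in acs2-Ts1, against 1406 in ACS2 (2.44-fold lower). The median log2 ratio of the class was -1.45, which is -0.32 relative to all genes.

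RNA helicases of the DEAD-box family unwind and rearrange the precursor rRNA. Of 7 helicases, 6 were at least 2-fold lower (85.7%), beside 55.9% of all genes. The class held both the lowest ratio of the 39 genes and the second highest. DBP3, which acts early on the precursor rRNA, had the lowest ratio, with 294 in acs2-Ts1, against 1167 in ACS2, a log2 ratio of -1.99 and a 3.97-fold lower level. MAK5 came next, with 183 in acs2-Ts1, against 721 in ACS2 (3.93-fold lower). SPB4, which acts in late nucleolar particles, read 116 in acs2-Ts1, against 378 in ACS2 (3.25-fold lower). These helicases stood well below the median of all genes. DBP10 read 244 in acs2-Ts1, against 626 in ACS2, and DRS1 read 362 in acs2-Ts1, against 920.4 in ACS2, levels that were 2.57-fold and 2.54-fold lower. DBP9 read 548 in acs2-Ts1, against 1266 in ACS2 (2.31-fold lower). HAS1, a helicase used in the assembly of both subunits, was the exception, with 1187 in acs2-Ts1, against 1756 in ACS2, only 1.48-fold lower. HAS1 is thus higher by 0.56 once the all-gene median is subtracted, whereas the other 6 helicases remain lower.

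The 4 GTPases act at successive steps from the nucleolus to the cytoplasm. Of these, 3 were at least 2-fold lower (75%), beside 55.9% of all genes. NOG1, a nucleolar GTPase, read 568 in acs2-Ts1, against 1332 in ACS2 (2.35-fold lower), and NUG1 read 609 in acs2-Ts1, against 1638 in ACS2 (2.69-fold lower). NOG2, which occupies the binding site of the export adaptor Nmd3 on nuclear particles, fell just short of the threshold, with 1004 in acs2-Ts1, against 1993 in ACS2 (1.99-fold lower). LSG1, the cytoplasmic GTPase that releases Nmd3, had the lowest ratio of the class, with 329.7 in acs2-Ts1, against 1057 in ACS2 (3.21-fold lower). All 4 lay below the curve of ratio on brightness, beside 50.9% of all genes. The same held for all 3 genes in each of the rRNA methyltransferase, Noc and Brix classes.

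The Nop7-Erb1-Ytm1 complex, whose mammalian counterpart is called PeBoW, is needed to process the spacer next to the 5.8S rRNA. Its genes differed among themselves more than those of the other small classes. NOP7 read 197 in acs2-Ts1, against 567 in ACS2 (2.87-fold lower). ERB1 read 1109.7 in acs2-Ts1, against 1840.2 in ACS2 (1.66-fold lower), and YTM1 read 695 in acs2-Ts1, against 1138 in ACS2 (1.64-fold lower). ERB1 and YTM1 thus shared nearly the same ratio, while the log2 ratios of the complex spanned 0.81. The median of the class, -0.73, was the only one of the 8 role classes that did not reach a 2-fold lower level.

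Noc proteins form pairs, of which one containing MAK21 (Noc1) and NOC2 acts early and one containing NOC2 and NOC3 acts later. All 3 genes were at least 2-fold lower, beside 55.9% of all genes. MAK21 read 363 in acs2-Ts1, against 902 in ACS2 (2.48-fold lower), NOC2 read 242 in acs2-Ts1, against 621 in ACS2 (2.57-fold lower), and NOC3 read 252 in acs2-Ts1, against 781 in ACS2 (3.10-fold lower). Their log2 ratios lay within 0.32 of each other.

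Proteins with a Brix domain bind rRNA and recruit partners. The 3 genes had the closest ratios of any class, from -1.35 to -1.23. BRX1 read 851 in acs2-Ts1, against 2164 in ACS2 (2.54-fold lower), and RPF1 read 309 in acs2-Ts1, against 783 in ACS2 (2.53-fold lower). RPF2, which brings the 5S rRNA particle to the subunit, read 433 in acs2-Ts1, against 1014 in ACS2 (2.34-fold lower).

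The RNA-binding and structural factors were split evenly about the all-gene median. Of 10 genes, 7 reached a 2-fold lower level (70%), beside 55.9% of all genes. The ratios of 5 lay below the all-gene median and of 5 above it, and the class median of -1.10 was close to that of all genes. At the low end were NOP13, with 196 in acs2-Ts1, against 715 in ACS2 (3.65-fold lower), and NOP8, with 105 in acs2-Ts1, against 376 in ACS2 (3.58-fold lower). NOP13 is an RNA-binding nucleolar protein, and NOP8 binds NIP7 and works in early particles. NOP4, an early RNA-binding factor, read 188 in acs2-Ts1, against 456 in ACS2 (2.42-fold lower). RLP7, a protein related to ribosomal protein L7, and NIP7 had almost equal ratios of -1.17. RLP7 read 475 in acs2-Ts1, against 1068 in ACS2, and NIP7 read 501 in acs2-Ts1, against 1129 in ACS2. EBP2, a nucleolar protein that works with Brx1, was just past the threshold, with 181 in acs2-Ts1, against 367 in ACS2 (2.03-fold lower). MAK16 was the dimmest of the 39 genes, with 73.5 in acs2-Ts1, against 148 in ACS2, and its acs2-Ts1 value was no brighter than the deleted genes. Without MAK16, 30 of 38 assembly factors were at least 2-fold lower (78.9%). The other 3 genes of the class were within 2-fold. NOP16 read 188 in acs2-Ts1, against 349 in ACS2, NOP15 read 566 in acs2-Ts1, against 974 in ACS2, and NOP12 read 298 in acs2-Ts1, against 512 in ACS2. NOP12 and NOP15 are RNA-binding proteins of nucleolar precursors of the large subunit, and their ratios were nearly equal, at -0.78 each.

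**Figure D4:**
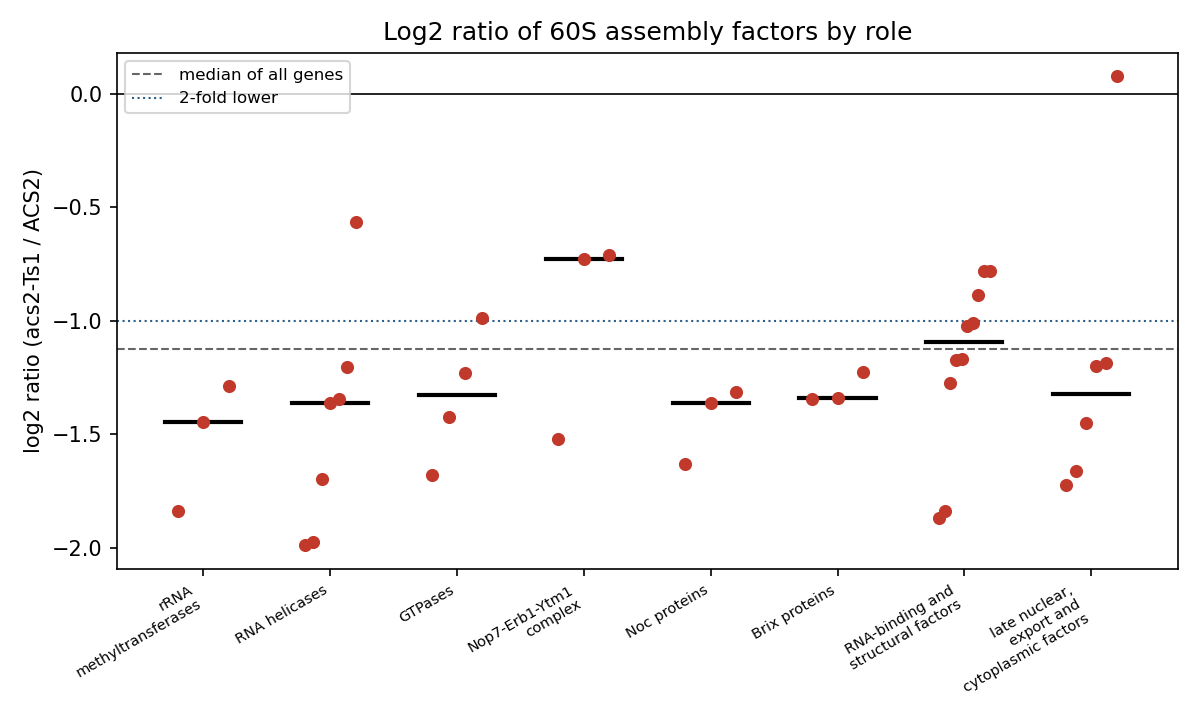
Log2 ratio of acs2-Ts1 over ACS2 for each of the 39 genes (points) in 8 role classes, with the class median as a black bar, the all-gene median dashed and a 2-fold lower level dotted. The medians of 7 classes lie below the dotted line, that of the Nop7-Erb1-Ytm1 complex at -0.73 lies above it, and TIF6 is the single point above 0.

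Late nuclear, export and cytoplasmic factors comprised 5 genes that were at least 2-fold lower (83.3%, beside 55.9% of all genes) and TIF6. RIX1, of the complex that brings the ATPase Rea1 to the particle, read 269 in acs2-Ts1, against 853 in ACS2 (3.17-fold lower). SDA1, needed for passage from the nucleolus to export, read 397 in acs2-Ts1, against 1088 in ACS2 (2.74-fold lower). The export factors were lower to a like degree. ARX1 read 379.7 in acs2-Ts1, against 871 in ACS2 (2.29-fold lower), and NMD3 read 507 in acs2-Ts1, against 1155 in ACS2 (2.28-fold lower). REI1, a cytoplasmic zinc finger protein that helps to remove Arx1, read 138 in acs2-Ts1, against 457 in ACS2 (3.30-fold lower). REI1 overlaps the gene SLM6, which was not measured here, and was the only one of the 39 to overlap another protein-coding gene.

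TIF6 encodes the factor, called eIF6 in mammals, that keeps the large subunit from joining the small one until it is mature. It read 2451 in acs2-Ts1, against 2327 in ACS2, a log2 ratio of 0.08. The SD among hybridization controls, 0.17, is larger. Values were scaled to controls, however, and that SD gives no error for a yeast transcript. In the ACS2 sample it was the brightest of the 39 probe sets, and ratios are closer to 0 at that brightness, yet it also lay 0.73 above the curve of ratio on brightness. Of all genes, 87.9% had a lower ratio than TIF6.

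Partners of these factors on the particle, chosen from the wider pathway after the values of the 39 genes were known, show how the ratios compare within physical or functional groups. Partners of TIF6 were at the opposite end of the range. SDO1 and RIA1, which release Tif6 from the subunit in the cytoplasm, read 117 and 124 in acs2-Ts1, against 701 and 558 in ACS2, and were 6.01-fold and 4.49-fold lower. The log2 ratios of this group spanned 2.66. Around RPF2, its partner RRS1 read 209 in acs2-Ts1, against 654 in ACS2 (3.13-fold lower). The ribosomal proteins that the pair helps to place were within 2-fold, with RPL5 at 8916 in acs2-Ts1, against 12205 in ACS2, and RPL11A at 5423 in acs2-Ts1, against 5706 in ACS2. These probe sets are far brighter than those of the pair, and ratios vary with brightness. Measured from the curve of ratio on brightness, RPL5 was at -0.50, RPL11B at -0.36 and RPL11A at 0.17. RPF2 was at -0.10 and RRS1 at -0.35, so the contrast with the pair did not hold on that scale. RPL11A and RPL11B are near-identical copies, so the signal of one may include the other.

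Genes of the following groups were all lower, as were 86.4% of all genes. DBP6 lay at the all-gene median, MAK16 and ALB1 lay 0.11 and 0.33 above it, and the others lay below it. Of the Npa1 group of early particles, URB1, URB2, RSA3 and DBP6 were 4.30-fold, 3.71-fold, 3.51-fold and 2.18-fold lower, beside 3.58-fold for NOP8. NSA1 and RRP1, which bind with RPF1 and MAK16, were 3.68-fold and 3.71-fold lower. Partners of RIX1 were IPI1, at 123 in acs2-Ts1, against 361 in ACS2 (2.94-fold lower), and IPI3, at 45.3 in acs2-Ts1, against 190.0 in ACS2, where the lower value is under the background limit. With NOG1, which binds next to RLP24, the release ATPase AFG2 and RLP24 were 2.22-fold and 2.86-fold lower. ALB1, which binds Arx1, was 1.73-fold lower, at 269.7 in acs2-Ts1, against 467 in ACS2, and JJJ1, a cochaperone that acts with Rei1, read 34.8 in acs2-Ts1, under the background limit, against 161 in ACS2.

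**Figure D5:**
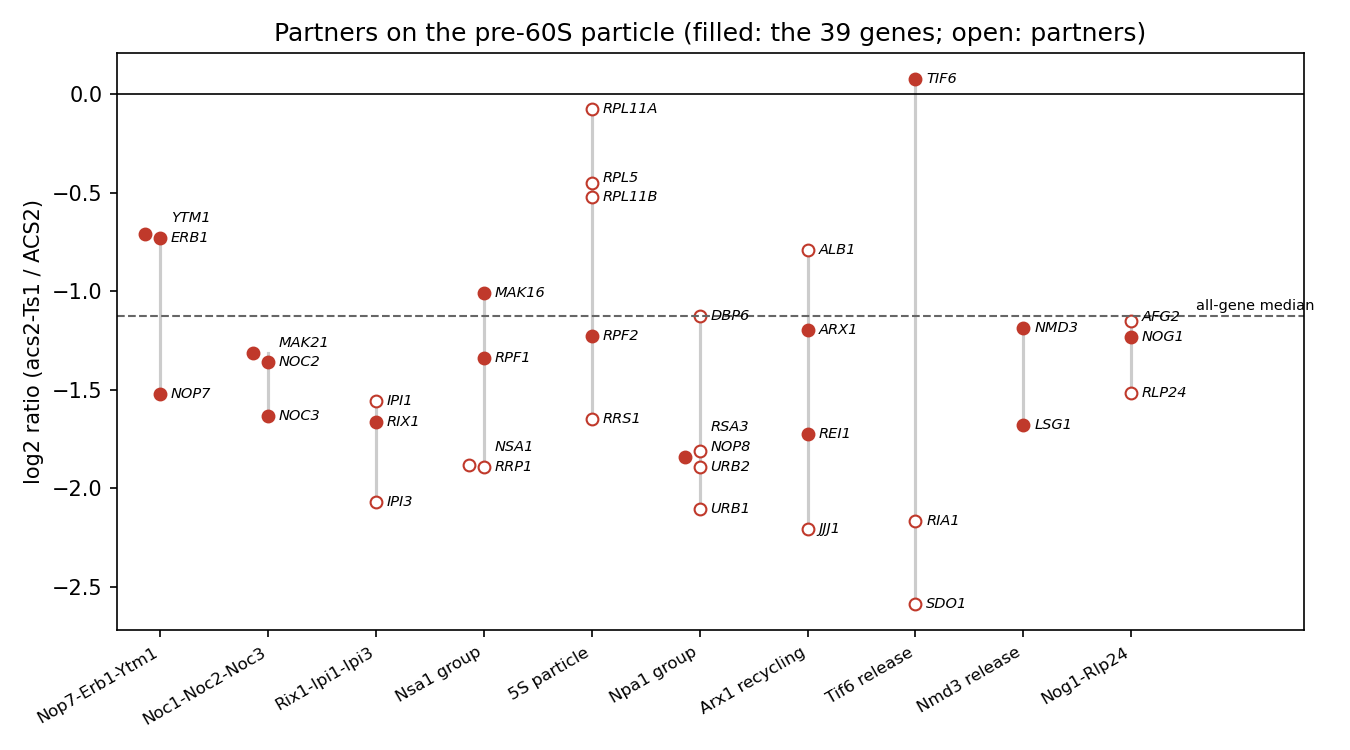
Log2 ratio of acs2-Ts1 over ACS2 for 10 groups of factors that bind or act together on the particle, with the 39 genes filled, partners open and the all-gene median dashed. Points shifted to the left have a neighbour at nearly the same ratio, the acs2-Ts1 values of MAK16, IPI3 and JJJ1 are no brighter than those of deleted genes, and the group of TIF6, SDO1 and RIA1 has the widest span, at 2.66.

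Of 44 other genes for large subunit assembly, 38 were at least 2-fold lower (86.4%), beside 55.9% of all genes. Their median log2 ratio was -1.53, so the 39 genes were not set apart from the rest of their pathway by a larger difference. ECM1, an export factor, read 72.3 in acs2-Ts1, against 433 in ACS2, and RSA1 read 26.5 in acs2-Ts1, under the background limit, against 143 in ACS2. BUD20, a shuttling zinc finger protein of export, was the only higher gene of that list, with 666 in acs2-Ts1, against 635 in ACS2. DBP2, at 457 in acs2-Ts1, against 533 in ACS2, and LOC1, at 223 in acs2-Ts1, against 363 in ACS2, were within 2-fold. Of 61 factors of the small (40S) subunit, 51 reached a 2-fold lower level (83.6%), with a median of -1.42. Those with the lowest measured ratios include TSR2 (7.26-fold lower), DBP8, at 66.9 in acs2-Ts1, against 442 in ACS2, and FAF1, at 22.6 in acs2-Ts1, against 210.3 in ACS2. The acs2-Ts1 value of FAF1 is under the background limit and that of DBP8 is no brighter than the deleted genes, so these 3 have no set order. RCL1 had the ratio closest to 0, at 568 in acs2-Ts1, against 653 in ACS2. Differences between these lists could not be tested with 1 sample per group.

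Other components of ribosome synthesis are given beside the 55.9% of all genes that were at least 2-fold lower. RNA polymerase I and its initiation factors had 9 of 15 genes at least 2-fold lower (60%), near that share, and a median of -1.31, with RPA43 at 130 in acs2-Ts1, against 655 in ACS2, and RRN5 at 187 in acs2-Ts1, against 188 in ACS2. Proteins of the small nucleolar ribonucleoproteins, which guide rRNA modification, had 4 of 8 genes past that threshold (50%), also near it, and a median of -0.91, and SNU13 read 11902 in acs2-Ts1, against 10667 in ACS2. Of 10 ribosomal proteins that assembly factors place or resemble, 0 were at least 2-fold lower (median -0.21). RPL7A, which RLP7 resembles, read 10926 in acs2-Ts1, against 11912 in ACS2, by a probe set that may cross-hybridize. These ribosomal protein probe sets are among the brightest, where ratios are closest to 0. Of the 10, 8 lay below the curve of ratio on brightness (80%), beside 50.9% of all genes, and their median distance from it was -0.21.

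Of 14 regulators of ribosome synthesis or ribosomal protein genes, 7 passed the 2-fold threshold downward (50%), near the 55.9% of all genes, and 0 upward. The kinase genes TOR2 and TOR1 had the lowest ratios, at 4.24-fold and 3.58-fold lower, with TOR2 at 252 in acs2-Ts1, against 1068 in ACS2. TOD6 and DOT6 encode related repressors of ribosome synthesis genes and differed, with TOD6 at 209.6 in acs2-Ts1, against 576 in ACS2, and DOT6 at 1548 in acs2-Ts1, against 1410.4 in ACS2. SFP1, an activator of the same genes, had equal values, 967 in acs2-Ts1, against 966 in ACS2. ABF1, a general regulatory factor, had the highest ratio of the list, with 1387 in acs2-Ts1, against 811 in ACS2 (1.71-fold higher).

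The 39 genes lie on 14 of the 16 chromosomes of the R64 assembly, used here for gene order alone, and 0 of them are next to another of the 39. Adjacent protein-coding genes with a value numbered 73, and their median log2 ratio was -1.40. Of these, 54 passed the 2-fold threshold downward (74.0%) and 2 upward. Neighbours, of which 3 belong to one of the other lists examined, thus had a share past the threshold above the 55.9% of all genes, as the assembly factors did. The lists do not hold every gene of ribosome synthesis, so further neighbours may act in it. Those 3 were GAR1, next to RPF1 and 2.84-fold lower, UTP9, next to RIX1 and 2.58-fold lower, and DBP8, next to NMD3. The downward threshold was passed by 12 of 16 divergent neighbours, which share the upstream region of an assembly factor gene, by 17 of 22 convergent ones and by 25 of 35 on the same strand.

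Control probe sets for 25S and 18S rRNA did not share the lower level of the 39 transcripts. Values were scaled to controls, and whether these probe sets were among them is not given. Their ratios may thus reflect the scaling, and no level of rRNA is read from them. Of 7 probe sets for 25S rRNA above background in both samples, 6 were higher and 1 lower, with log2 ratios from -0.35 to 0.87, and 0 differed by 2-fold. Of 6 for 18S rRNA, 4 were higher and 2 lower, from -0.46 to 1.14. Probe sets for one rRNA disagreed in sign, and how much rRNA the labelling step copied is not given in the sources used here.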

How the data were processed

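Total RNA of 2 yeast strains was hybridized as biotin-labelled target to Affymetrix arrays. Per the labels and the design text of the series, 4 arrays were background-corrected with RMA by the authors, reduced to 1 mean of 2 arrays per strain, and normalized by lowess on controls, because expression shifted globally. The deposited values are intensities on a linear scale, and the normalization was kept. The controls used, the summary step and the versions of software were not given in the sources used here. An error in that scaling would move many genes of a sample together, by amounts that can differ with brightness, and averaging hides the spread between arrays. The number of arrays limits the precision.

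Of 10928 probe sets, 7244 have 1 gene in the platform annotation, 1 has several and 3683 have none. By gene ID, 5498 matched the R64 gene table, giving 5449 genes. Each gene was read by its brightest probe set lacking a suffix letter, and 81 genes had only suffix probe sets. Log2 ratios used no pseudocount. The curve on brightness was a lowess fit of span 0.30 (statsmodels 0.14.6, Python 3.11.15), run also on simulated intensities. That simulation used the same shift at every brightness, so it did not test how the curve follows a trend. The call rule was a 2-fold difference, since 1 sample per group allows no test. All 39 genes are named, with up to 3 genes at each end of other lists. Other genes named are partners in the groups described, neighbours that belong to a list, and strain markers. Members, lists and groups were chosen with earlier results of these data known. Of the lists, DBP4 and RPL7B were not analysed here. Promoter motifs were planned but not analysed, and no sequences are shown. Alternatives covered scaling, probe set choice, pseudocount, background, level filters and fold threshold.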

Additional observations from a re-analysis of the deposited data

How the results depend on the processing

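With 1 sample per group and no error, each alternative gives a value only. No paired analysis was possible because each group is 1 sample and the labels give no replicate numbers. The median log2 ratio of the 39 genes, -1.31 as deposited, was -0.19 minus the all-gene median, -1.30 minus the median of hybridization controls, -0.13 minus the curve on brightness, -1.24 with 32 added to both values, -1.35 with background subtracted, -1.33 without genes under the 25th percentile of level or without MAK16, and -1.23 without genes under the median level, where 27 of the 39 remained. The number at least 2-fold lower, 31, became 0 minus the all-gene median, 0 minus the curve, 20 of the 27 with the median level filter and 10 at 3-fold. At least 2-fold higher were 0, and 1 (TIF6) minus the all-gene median. For all genes the count of 3048 became 360 minus the median, 221 minus the curve, 1190.0 with the median level filter and 1408 at 3-fold. Of the 8 role classes, 7 had a median at least 2-fold lower as deposited, and 0 minus the all-gene median or minus the curve. The median of neighbours, -1.40, was -0.27 minus the all-gene median, -1.39 minus the controls' median, -0.16 minus the curve, -1.26 with 32 added, -1.45 with background subtracted, -1.33 and -1.08 with the level filters and -1.36 above the background limit in both samples. Higher were 10 of the 39 genes minus the all-gene median and 10 minus the curve, against 1 as deposited. The Nop7-Erb1-Ytm1 class median, -0.73 as deposited, was 0.39 minus the all-gene median, where HAS1 was at 0.56, YTM1 at 0.41 and ERB1 at 0.39. Of values that were at least 2-fold lower as deposited, these changed sign. Minus the all-gene median, MAK16 was at 0.11, EBP2 at 0.10 and the RNA-binding class at 0.028, and minus the curve they were at 0.42, 0.39 and 0.21, with NOP4 at 0.11. Among single members, 5 of 415 values under the alternatives changed sign in this way, all of them minus the all-gene median or the curve. The other 410 do not measure stability. Each gene has 1 probe set, so probe set choice and filters return the value of a kept gene as it was. Values had already been scaled to controls, and the median of hybridization controls was -0.01. Subtracting that median could therefore change little and is no independent check of the shift. Genes within 2-fold as deposited, such as HAS1, were not counted as changed when their sign did. The background limit filter and the omission of MAK16 were added after seeing the data.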
